A study of Mus musculus with 12 samples.

Results

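The comparison set oligodendrocyte precursor cells (OPC) against cells labelled astrocytes (AST), both grown from mouse neural stem cells (NSC) and both without an introduced oncogene. It rests on the 2 arrays titled OPC and the 2 arrays titled AST, 4 of the 12 arrays in the series. All genes with a single symbol on the array were members, and 12835 of 18193 such genes had a probe set with a mean above the median of all values in at least 1 group and were tested. Each was read by the brightest over the 12 arrays of its probe sets that met this condition, which for 48 genes was not the brightest of all their probe sets. Per the labels, all cells came from brain tissue of E14.5 embryos of the BL6 strain with the genotype p53-/-, so the controls carried the p53 loss too. OPC were induced with 10 ng/ml PDGFAA, 2 ng/ml bFGF and 0.25% fetal calf serum and then purified by sequential immunopanning, while AST were induced with 10% serum over 3 weeks. Cell identity, growth factors, serum, time in culture and purification therefore cannot be told apart in OPC against AST. The lines OPCL61 and ASTL61 derive from these parents. They received plasmids for HRasL61 with EGFP and for neomycin resistance by electroporation, were kept in 0.5 mg/ml neomycin, and were purified by GFP. They serve here as a second comparison, of cells that carry HRasL61 and passed selection, and are not replicates of OPC against AST. NSC serve as the common source.

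OPC are dividing glial progenitors of the brain that give rise to myelin-forming oligodendrocytes. Olig1 and Olig2 specify the lineage, PDGF receptor alpha carries the mitogenic signal of PDGF, and differentiation brings on the enzymes and proteins of myelin. Astrocytes arise from the same stem cells, support neurons through glutamate uptake, potassium buffering and cholesterol transport, and are recognised by intermediate filament, transporter and metabolic genes such as Gfap, Slc1a2, Slc1a3 and Aldoc.

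Levels are the deposited log2 probe set signals, in which 1 unit is a doubling. Probe sets differ in brightness, so levels of different genes cannot be ranked against each other. The median of all values was 5.183. A level below it may be background, and a difference from such a level may be a lower bound. Over the genes tested the 2 OPC arrays correlated at r = 0.991 and the 2 AST arrays at r = 0.993, while the OPC and AST means correlated at r = 0.795, as descriptions across genes, which are not independent. One array control, the probe set at the 5' end of the 18S RNA, read 8.71 and 12.59 in OPC against 8.42 and 9.06 in AST, so OPC array 2 stood apart in it. Its part in the results was not tested directly, and values without that array are given for the genes described where a call is lost or the value moves by over 1.5 times. Nothing in the labels says that the 2 arrays of a group came from separate cultures or animals, so p-values measure the spread between these samples, which may be technical. In bulk RNA, fewer cells of a type and less RNA per cell cannot be told apart.

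By limma, 6637 of 12835 genes (51.7 percent) differed between OPC and AST at an adjusted p under 0.05. Of these, 3354 (26.1 percent) were higher in OPC and 3283 (25.6 percent) lower. A fitted difference of over 1 on the log2 scale was found for 1697 higher and 1383 lower genes, of over 4 for 193 and 132, and of over 8 for 7 and 6. Levels above 10 were found for 1782 genes in OPC and 1839 in AST, with 1338 shared by both. Another 40 genes lay above 10 in OPC and below the median in AST, and 41 lay the opposite way. At the other end, the 95% interval of the difference lay within 0.5 of 0 for 2673 genes, of which 423 were above 10 in both. The median standard error (SE) of a difference was 0.158.

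**Figure D1:**
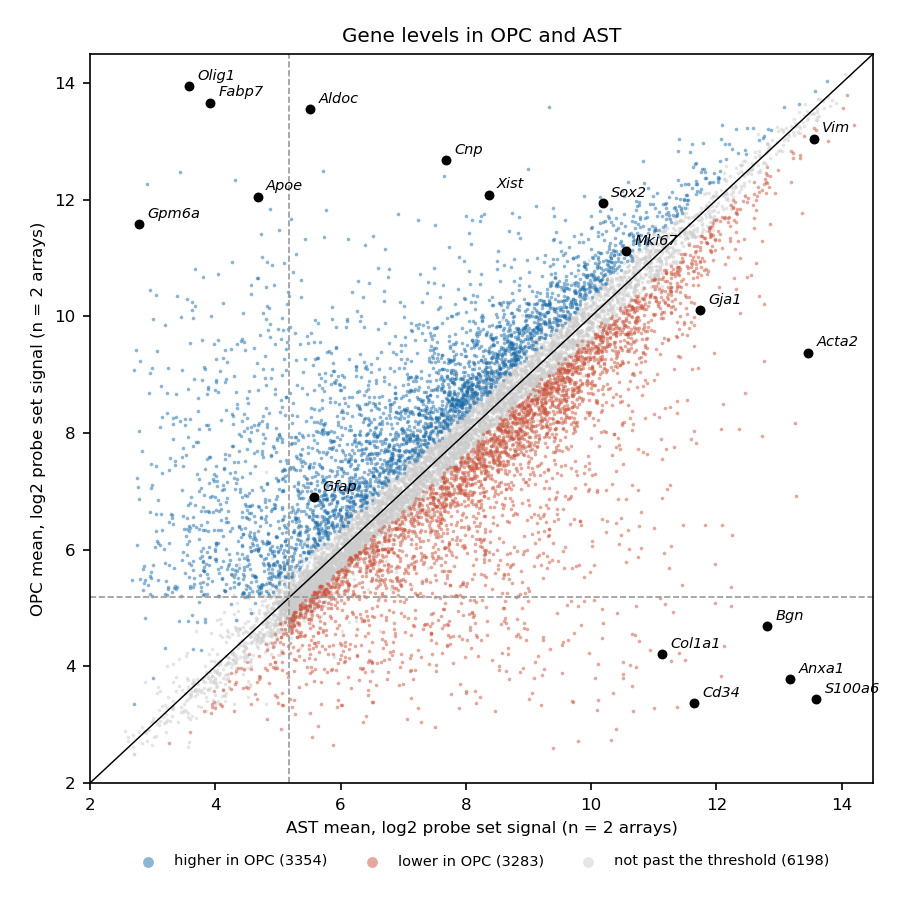
Mean level of each of 12835 genes in OPC (vertical axis) and AST (horizontal axis), log2 probe set signal, 2 arrays each. Blue genes were higher and red genes lower in OPC by limma, grey ones did not pass, the solid line marks equal levels and dashed lines the median of all values. Olig1, Fabp7 and Gpm6a sit at the upper left and S100a6, Anxa1 and Cd34 at the lower right, while Vim sits near the diagonal.

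Among the 12 largest positive differences, Olig1, a lineage transcription factor, had levels of 13.86 and 14.04 in OPC against 3.65 and 3.50 in AST, a difference of 10.37 ± 0.17 (SE; limma adjusted p = 9.65e-10). Both OPC arrays were near the top of the scale and both AST arrays below the median of all values. Fabp7, the brain fatty acid binding protein of radial glia and glial progenitors, read 13.76 and 13.58 in OPC and 4.06 and 3.77 in AST, and the difference was 9.75 ± 0.49. NSC read 5.96 and 4.11 for Fabp7, so the stem cell arrays lay with AST and not with OPC. Ednrb, the endothelin B receptor, was at 12.45 and 12.51 in OPC against 3.46 and 3.42 in AST. Its arrays agreed within a group and the groups lay 9.04 ± 0.31 apart. Gpm6a, a neural membrane glycoprotein related to the myelin proteolipid, was at 11.50 and 11.66 in OPC and at 2.72 and 2.86 in AST, 8.79 ± 0.12 apart, with both AST arrays near the lowest values on the array.

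Ptprz1, a receptor phosphatase of OPC, was at 12.20 and 12.47 in OPC against 4.16 and 4.48 in AST, a difference of 8.02 ± 0.31. Here NSC held a middle place at 7.85 and 7.60. The other genes in the leading 12 included Lrrn1, a neural leucine-rich repeat protein, at 7.50 ± 0.21, and Tox3, a nuclear protein with an HMG box, at 7.32 ± 0.26. Gatm, which makes the precursor of creatine, stood at 7.14 ± 0.24, and Bcas1, expressed in oligodendrocytes as they begin to make myelin, at 6.97 ± 0.17. Apoe, the lipoprotein that carries cholesterol between glia and neurons, differed by 7.38 ± 0.84 (limma adjusted p = 7.27e-05), the widest SE among these 12. Its arrays read 11.48 and 12.63 in OPC, 4.55 and 4.80 in AST and 9.24 and 6.48 in NSC. The groups OPC and AST did not overlap for any of these 12 genes, a condition of the rule that chose them, which 37.3 percent of all genes met in the higher direction.

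**Figure D2:**
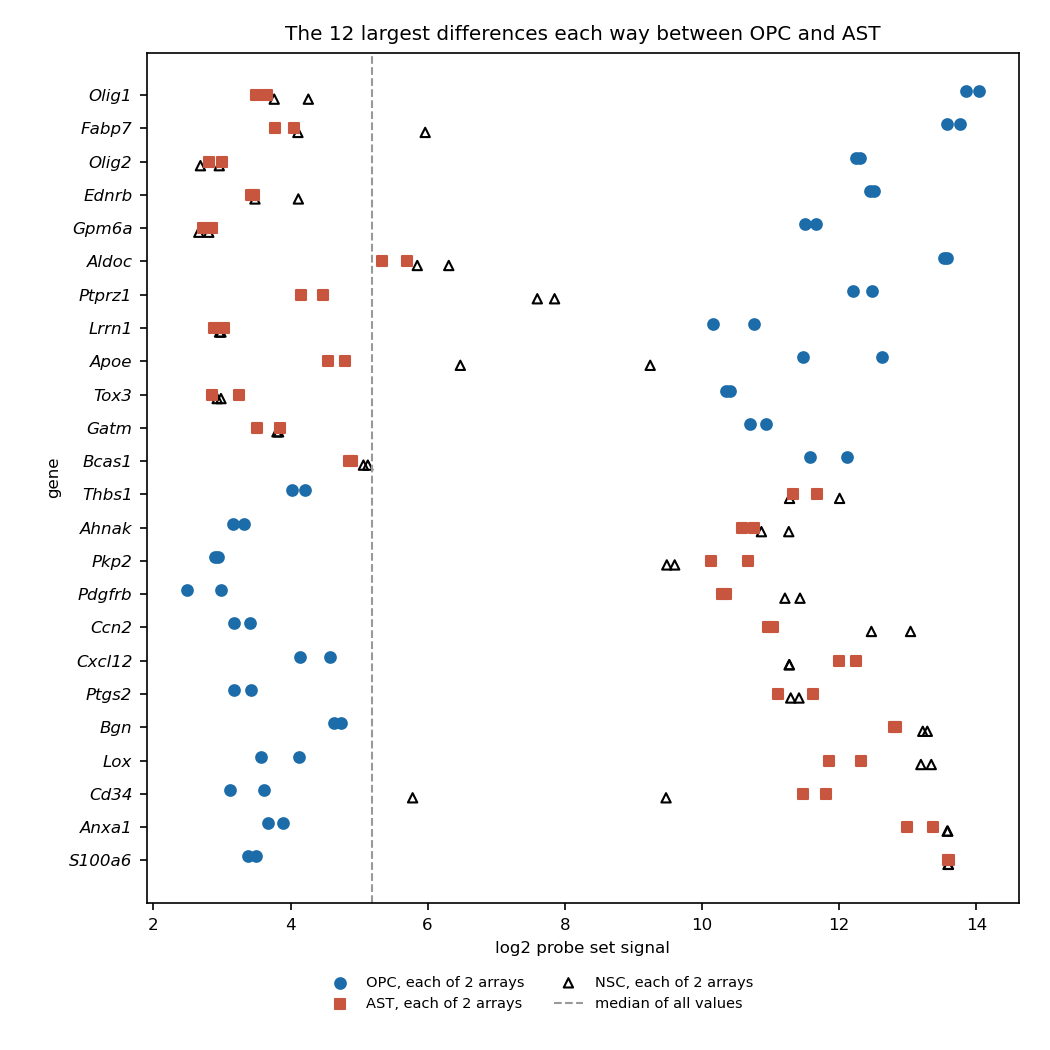
Level of the 12 genes with the largest positive and the 12 with the largest negative difference, OPC against AST, log2 probe set signal, every array shown as a point. Circles are OPC, squares AST and triangles NSC, and the dashed line is the median of all values. For the lower 12 genes the NSC points lie nearer AST than OPC, except that the Cd34 points are spread at 5.78 and 9.48.

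Among the 12 largest negative differences, S100a6, a calcium-binding S100 protein, had 3.38 and 3.49 in OPC against 13.58 and 13.60 in AST, a difference of -10.16 ± 0.14 (limma adjusted p = 3.16e-10). The AST values matched those of NSC, 13.59 in both arrays. Anxa1, a membrane-binding annexin, had 3.89 and 3.68 in OPC and 13.37 and 12.99 in AST, -9.40 ± 0.17. Cd34, a sialomucin of vascular, stromal and blood progenitor cells, was at 3.62 and 3.12 in OPC and at 11.47 and 11.81 in AST. Its difference of -8.27 ± 0.92 had a wide SE, which the shared spread takes in part from NSC at 5.78 and 9.48.

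Bgn, the matrix proteoglycan biglycan, was at 4.63 and 4.74 in OPC and at 12.83 and 12.79 in AST, -8.13 ± 0.15. Lox, which cross-links collagen, was at 4.12 and 3.57 in OPC and at 12.32 and 11.85 in AST, -8.24 ± 0.24. For both, all OPC arrays were below the median of all values and all AST arrays far above it. Ptgs2, the inducible cyclooxygenase, differed by -8.07 ± 0.30, and the chemokine Cxcl12 by -7.77 ± 0.29. Ccn2, a matricellular growth factor modulator, differed by -7.71 ± 0.25, and Pdgfrb, the PDGF receptor of pericytes and other mural cells, by -7.58 ± 0.21. Pkp2, a desmosomal plakophilin, Ahnak, a large scaffold of the membrane cortex, and Thbs1, thrombospondin 1, completed the 12 at -7.47 ± 0.56, -7.43 ± 0.22 and -7.39 ± 0.31. Further Ahnak probe sets gave -1.21 and -1.11. Again the rule required that OPC and AST arrays not overlap, as was the case in the lower direction for 43.2 percent of all genes.

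Markers of OPC were higher in the arrays titled OPC. Of 26 markers listed, 24 were measured, 21 (87.5 percent) were higher, 0 lower by limma and 3 did not pass. Over all genes 26.1 percent were higher and 25.6 percent lower. The median difference of the list was 5.37, against -0.061 over all genes tested. A gene high in 1 of the groups passes the filter through that group, so such counts over lists describe the levels and are no separate evidence. Pdgfra, the receptor for the PDGFAA in the OPC medium, was at 11.29 and 11.85 in OPC and at 8.26 and 6.75 in AST, 4.07 ± 0.44, while NSC read 10.52 and 10.77, close to OPC. Cspg4, the NG2 proteoglycan, was at 8.06 and 8.45 in OPC, 6.33 and 6.44 in AST and 8.04 and 8.01 in NSC. For both genes the AST arrays were the low ones and NSC lay nearer OPC. Rlbp1, a retinaldehyde-binding protein also found in OPC, read 9.80 and 10.13 in OPC against 3.11 and 2.91 in AST, and Lhfpl3, a tetraspan membrane protein, 9.68 and 10.82 against 3.48 and 3.79. Pcdh15, a protocadherin, differed by 6.37 ± 0.21, and its brighter probe set without a group mean above the median gave 0.74. The difference was 6.06 ± 0.22 for Bcan, the proteoglycan brevican. Sox10, a transcription factor of the whole lineage, did not pass on its brightest probe set, at 6.45 and 6.43 in OPC and 6.22 and 6.23 in AST (0.22 ± 0.10, limma adjusted p = 0.1). Its 2 other probe sets were called higher, at 0.87 and 2.33, so the probe sets of Sox10 disagree in size.

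Genes of differentiating oligodendrocytes were also present in OPC. Of 22 listed, 15 were measured, 10 (66.7 percent) were higher, 2 (13.3 percent) lower and 3 did not pass, with a median difference of 1.62. The shares over all genes were 26.1 percent higher and 25.6 percent lower. Cnp, a phosphodiesterase of myelin, was at 12.71 and 12.64 in OPC and 7.68 in both AST arrays, 4.99 ± 0.21. Mbp, myelin basic protein, was at 10.34 and 9.29 in OPC and at 6.10 and 6.08 in AST. Of 7 Mbp probe sets, 6 were higher, by up to 7.20, and 1 was lower at -0.31. Ugt8a, which makes the myelin lipid galactosylceramide, read 10.32 and 10.76 in OPC and 3.92 and 5.23 in AST, and Cldn11, the claudin of myelin, 6.68 and 5.41 against 3.13 and 2.94. OPC array 1 was the higher array for Mbp and Cldn11 and array 2 for Ugt8a and Bcas1, so the arrays did not order the same way. The 2 lower genes were Aspa, which breaks down N-acetylaspartate, at -1.19 ± 0.27, and the tetraspanin Tspan2 at -0.52 ± 0.15. Tspan2 no longer passed without OPC array 1 (-0.42, limma adjusted p = 0.101) or without AST array 1 (-0.43, adjusted p = 0.104), which leaves 1 lower gene.

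The astrocyte markers went against the label of the arrays titled AST. Of 25 listed, 20 were measured, and 17 (85 percent) were higher in OPC, 1 (5 percent) was lower and 2 did not pass. The shares over all genes were 26.1 percent higher and 25.6 percent lower. The median difference of the list was 3.80, and its median level was 9.74 in OPC against 5.48 in AST. Summed over the list, the log2 level was 14.98 and 15.18 in OPC and 12.28 and 12.21 in AST. Aldh1l1, Gjb6, Gpc5 and Slc7a10 had no group mean above the median of all values. The 2 AST arrays are therefore called AST here after their title, and no other cell type is assigned to them.

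Aldoc, the aldolase of brain astrocytes, was at 13.52 and 13.58 in OPC, against 5.34 and 5.69 in AST, 8.03 ± 0.35. Mlc1, a membrane protein of astrocyte endfeet, was at 10.13 and 10.08 in OPC and 3.58 and 3.69 in AST. Slc1a2, the main glutamate transporter of mature astrocytes, was at 7.50 and 8.21 in OPC and 3.65 and 3.79 in AST, while Slc1a3, the glutamate transporter of radial glia and astrocytes, differed by 2.71 ± 0.41. For these 4 genes both OPC arrays lay above both AST arrays on the probe set used. The probe sets of Slc1a2 disagreed in size: the brightest, left out because no group mean was above the median, gave 0.26 (limma adjusted p = 0.26). Further Slc1a3 probe sets gave 4.43, 3.76 and 4.10. Acsbg1, an acyl-CoA synthetase, and Ndrg2 differed by 5.89 ± 0.26 and 5.52 ± 0.48. S100b, a calcium-binding protein shared by astrocytes and parts of the oligodendrocyte lineage, was at 9.43 and 10.21 in OPC and 5.14 and 5.24 in AST. Sox9, a glial transcription factor, differed by 1.79 ± 0.27.

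Gfap was at 7.73 and 6.07 in OPC and at 5.41 and 5.73 in AST, 1.33 ± 0.42 (limma adjusted p = 0.0235). The AST values lay close to the median of all values, and 2 further probe sets gave 2.22 and 3.44. The Gfap call rested on OPC array 1: without it the difference was 0.50 (limma adjusted p = 0.0859). It also missed the threshold without AST array 1 (1.17, limma adjusted p = 0.115) and without AST array 2 (1.49, adjusted p = 0.0566), and it was 2.16 without OPC array 2. Gja1, the gap junction protein connexin 43, was the marker lower in OPC, at 10.67 and 9.55 against 11.80 and 11.67 in AST. Its difference was -1.63 ± 0.30, and -1.07 without OPC array 2. Aqp4, the water channel, did not pass on its brightest probe set (0.30 ± 0.14), and 2 others gave 2.17 and 2.67.

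Of 19 genes of neural stem cells and radial glia, 7 (36.8 percent) were higher in OPC, 5 (26.3 percent) lower and 7 did not pass, beside 26.1 and 25.6 percent over all genes. Sox1, a neural progenitor factor, was at 6.87 and 6.43 in OPC and 3.10 and 2.83 in AST, and Hes5, a Notch target, at 8.66 and 8.87 against 5.53 and 5.25. In NSC the Sox1 levels were 2.97 and 2.95. A brighter Sox1 probe set with no group mean above the median gave a difference of 0.022 (limma adjusted p = 0.88). Sox2 was at 11.99 and 11.89 in OPC, 10.07 and 10.31 in AST and 4.41 and 6.79 in NSC, so AST lay between. Its difference of 1.75 ± 0.57 passed (limma adjusted p = 0.0279) but did not pass without any single OPC or AST array, at 1.63 to 1.87 (adjusted p from 0.078 to 0.114). Lower in OPC were the matrix protein Tnc at -2.93 ± 0.53 and the cortical patterning factor Emx2 at -1.64 ± 0.29. Pax6 at -1.40, Fut4 at -0.72 and the intermediate filament Vim at -0.50 also passed, but each call rested on single arrays. Pax6 did not pass without any 1 of the 4 arrays, at -1.31 to -1.49 (limma adjusted p from 0.0812 to 0.122). Fut4 did not pass without AST array 1 (-0.63, limma adjusted p = 0.0506). Vim was at -0.31 without OPC array 2 (limma adjusted p = 0.106) and did not pass without AST array 1 (-0.51, adjusted p = 0.0522) or AST array 2 (-0.49, adjusted p = 0.0602). The lower calls among the 19 genes numbered 3 without OPC array 2 or AST array 2 and 2 without AST array 1. Nes, the intermediate filament nestin, did not pass at 0.45 ± 0.18, with 9.25 and 9.05 in OPC and 8.76 and 8.64 in AST.

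Genes of pericytes, fibroblasts and meninges were lower in OPC for 14 of the 22 measured. Of 28 listed, 22 were measured, 2 (9.09 percent) were higher in OPC, 14 (63.6 percent) lower and 6 did not pass, with a median difference of -2.96. Over all genes 26.1 percent were higher and 25.6 percent lower. Summed over the list, the log2 level was 10.72 and 10.83 in OPC against 14.87 and 14.59 in AST. Col1a1, a chain of collagen I, was at 4.35 and 4.08 in OPC and 11.51 and 10.74 in AST, with NSC at 12.61 and 12.93. The 2 genes higher in OPC were Islr at 3.55 ± 0.30 and the fibulin Fbln1 at 2.08 ± 0.21. Further Fbln1 probe sets gave 0.76 and -0.07, the last not called. Among 16 smooth muscle contractile genes measured, 16 were lower in OPC, with a median difference of -2.64. Acta2, smooth muscle actin, was at 10.40 and 8.36 in OPC and at 13.61 and 13.33 in AST, -4.09 ± 0.52. Tpm2, a tropomyosin, was at 4.77 and 5.10 in OPC and 11.69 and 10.94 in AST. Tagln, the actin-binding protein SM22, was at 6.13 and 5.75 in OPC, against 11.64 and 10.67 in AST. OPC array 1 held the higher Acta2 level of the pair, but both OPC arrays remained below both AST arrays for these 3 genes. What other cells contribute to these levels was not tested.

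Few markers of microglia and endothelium were measured. Of 16 microglia and macrophage markers, 5 were measured and 2 were lower (1 without any single array), while Aif1, Itgam, Cx3cr1, Ptprc, Tyrobp, the C1q chains and P2ry12 had no group mean above the median of all values. Cd14, a receptor for bacterial lipopolysaccharide that other cells can also express, was at 4.30 and 4.78 in OPC and 7.63 and 7.78 in AST. Of 14 endothelial markers, 5 were measured, 1 was higher (Ramp2, 2.89 ± 0.19) and 1 lower (Eng, -0.50 ± 0.10), while Pecam1, Cdh5, Cldn5 and Vwf had no group mean above the median. Of 20 neuronal markers, 16 were measured, 10 were higher in OPC and 0 lower by limma, with a median difference of 1.97. Stmn3, a microtubule regulator of neurons, was at 11.11 and 10.73 in OPC and 5.08 and 5.10 in AST. Map2 was at 11.11 and 11.36 in OPC and 8.12 and 8.06 in AST, and Gap43 differed by 3.86 ± 0.38. The synaptic gene Snap25 and the transporter Slc17a6 had no group mean above it either. Of 9 Schwann cell and neural crest genes measured, 3 (33.3 percent) were higher, 2 (22.2 percent) lower and 4 did not pass. Over all genes 26.1 percent were higher and 25.6 percent lower. Fewer lower calls on this list remained without either OPC array or AST array 1. The higher ones were Cdh19 and Erbb3, by 3.31 ± 0.14 and 3.49 ± 0.12, and Gap43, and the neural crest factor Tfap2a was lower by -1.14 ± 0.20. Of 6 ependymal and choroid plexus genes, 2 (33.3 percent) were higher, fewer without any single array, and 1 (16.7 percent) lower. Dynlrb2, a dynein light chain, was higher by 1.81 ± 0.24, and the water channel Aqp1 lower by -2.99 ± 0.28.

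Among all genes tested, 26.1 percent were higher in OPC and 25.6 percent lower. Of 29 collagen chains measured, 14 (48.3 percent) were lower in OPC, 3 (10.3 percent) higher and 12 did not pass. The lower ones took in the fibrillar chains Col1a2 (-6.87 ± 0.20) and Col5a2 (-6.66 ± 0.18), the short-chain Col8a1 (-6.67 ± 0.30) and the basement membrane chain Col4a2 (-4.97 ± 0.21). The higher ones were Col11a1, Col9a1 and Col9a3, chains best known from cartilage and eye, by 2.57 ± 0.40, 1.88 ± 0.13 and 1.07 ± 0.12. A further probe set gave 6.52 for Col9a1 and another 2.71 for Col9a3. Of 14 enzymes and chaperones that process collagen, 9 were lower and 0 higher by limma, with a median difference of -1.46. Serpinh1, the collagen chaperone HSP47, was at 5.03 and 5.33 in OPC and 11.29 and 10.90 in AST. A further Serpinh1 probe set gave a difference of -8.14. Pcolce, which enhances cleavage of procollagen, was at 5.83 and 5.68 in OPC and 11.96 and 11.98 in AST. Both genes lay far above the median in AST and close to it in OPC.

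Of 39 matrix proteins other than collagens, 11 (28.2 percent) were higher, 16 (41 percent) lower and 12 did not pass. Over all genes 26.1 percent were higher and 25.6 percent lower, so the higher share was near that of all genes. Bcan, among the higher ones, was at 11.54 and 12.10 in OPC and 5.74 and 5.79 in AST, and Ncan, neurocan, was at 10.52 and 10.57 in OPC and 4.92 and 4.94 in AST. Tnr, tenascin R of perineuronal matrix, was at 8.21 and 9.17 in OPC and 2.84 and 3.04 in AST. All 3 were near or below the median in AST. Spon1, F-spondin, and Sparcl1, hevin, differed by 6.95 ± 0.21 and 6.69 ± 0.54. The lower ones included Thbs2 at -4.46 ± 0.50, the elastic fibre protein Fbln5 at -4.36 ± 0.28 and fibronectin Fn1 at -4.24 ± 0.66. Of 19 metalloproteinases and inhibitors, 3 (15.8 percent) were higher and 7 (36.8 percent) lower. The inhibitors Timp4 and Timp1 went opposite ways: Timp4 was at 9.98 in both OPC arrays and 4.95 and 5.17 in AST, whereas Timp1 was at 3.96 and 4.22 in OPC and 11.53 and 11.03 in AST. Mmp14, the membrane-bound collagenase, was lower by -5.75 ± 0.29 and Mmp16 higher by 1.52 ± 0.24. Of 15 integrins, 2 (13.3 percent) were higher and 6 (40 percent) lower. Among them Itgb8, which activates latent TGF-beta, was higher by 3.37 ± 0.31, and Itga3, Itga5 and Itgb5 were lower by -3.00 ± 0.21, -2.64 ± 0.30 and -2.52 ± 0.34.

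YAP and its partner TAZ (Wwtr1) are coactivators that bind DNA through TEAD factors and respond to stiffness and spreading of cells. Of 20 regulators and targets measured, 16 (80 percent) were lower in OPC, 0 higher by limma and 4 did not pass, with a median difference of -1.51. The shares over all genes were 25.6 percent lower and 26.1 percent higher. Ankrd1, an ankyrin repeat protein and target, was at 3.76 and 3.84 in OPC and 10.65 and 10.35 in AST, -6.70 ± 0.46. Vgll3, a TEAD cofactor, was at 4.09 and 3.66 in OPC and 10.58 and 10.44 in AST, -6.63 ± 0.24. Ccn1, a matricellular target, was at 6.50 and 6.34 in OPC and 12.04 and 12.14 in AST, -5.67 ± 0.26. The groups did not overlap for these 3 genes. Myof, a membrane repair protein, was lower by -5.68 ± 0.18.

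The promoters of this list were read for the TEAD motif GGAATG on either strand, as GGAATG or CATTCC. RefSeq windows of 250 bases before to 50 after the start, on GRCm38.p6, were found for 10331 of the 12835 genes. The motif occurred for 12 of 17 genes of the list with a window (70.6 percent). It occurred for 16.6 percent of all 27025 genes with a window and 14.4 percent of the tested genes with one. Among genes higher and lower in OPC it occurred for 15 and 14.1 percent. It also occurred for 7 of 14 smooth muscle contractile genes with a window (50 percent) and 3 of 18 OPC markers (16.7 percent). The list for YAP and TAZ was drawn up from known regulators and targets, so its share is a description. So is each match, which need not be a bound site. Not every gene with a large difference held the motif: the window of Myof had 0 matches, and no window was found for Ccn2. Windows of 3 listed genes that hold a match and have large differences are shown 5′ to 3′ along the gene, with the matches in capitals. Ccn1 is at chr3:145649936-145650235, minus strand, Ankrd1 at chr19:36119795-36120094, minus strand, and Vgll3 at chr16:65814939-65815238, plus strand.
Ccn1: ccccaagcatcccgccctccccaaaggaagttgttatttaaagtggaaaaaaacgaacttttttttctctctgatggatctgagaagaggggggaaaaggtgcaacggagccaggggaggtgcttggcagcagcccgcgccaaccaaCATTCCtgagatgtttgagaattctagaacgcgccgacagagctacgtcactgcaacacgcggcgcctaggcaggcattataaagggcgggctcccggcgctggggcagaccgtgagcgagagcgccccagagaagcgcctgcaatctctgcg
Ankrd1: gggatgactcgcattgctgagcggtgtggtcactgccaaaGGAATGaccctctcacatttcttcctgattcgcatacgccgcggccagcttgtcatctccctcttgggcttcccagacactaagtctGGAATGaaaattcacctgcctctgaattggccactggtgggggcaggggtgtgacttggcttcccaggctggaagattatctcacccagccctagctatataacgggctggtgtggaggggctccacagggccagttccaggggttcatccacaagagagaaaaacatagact
Vgll3: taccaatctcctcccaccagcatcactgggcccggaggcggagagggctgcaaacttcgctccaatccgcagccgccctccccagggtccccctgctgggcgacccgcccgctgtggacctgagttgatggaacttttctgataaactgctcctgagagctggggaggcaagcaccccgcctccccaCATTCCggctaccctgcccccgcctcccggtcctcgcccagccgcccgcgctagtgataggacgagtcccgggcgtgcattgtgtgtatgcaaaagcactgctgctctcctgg

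Contractile genes are known to be read through the CArG box, the site of serum response factor. It was found, searched by its name's pattern on both strands, for 3 of 14 smooth muscle genes with a window (21.4 percent), against 1.81 percent of all genes with one, 1.61 percent of the tested genes, 1.4 percent of genes higher in OPC and 2.14 percent of genes lower. It was also found for 2 of 18 OPC markers with a window (11.1 percent). Windows of 2 of the 3 smooth muscle genes are shown the same way, with the box in capitals. Myl9, the regulatory myosin light chain, is at chr2:156775214-156775513, plus strand, and Vcl, vinculin of adhesion plaques, at chr14:20929148-20929447, plus strand. Both genes, chosen for this motif after their values were seen, were lower in OPC.
Myl9: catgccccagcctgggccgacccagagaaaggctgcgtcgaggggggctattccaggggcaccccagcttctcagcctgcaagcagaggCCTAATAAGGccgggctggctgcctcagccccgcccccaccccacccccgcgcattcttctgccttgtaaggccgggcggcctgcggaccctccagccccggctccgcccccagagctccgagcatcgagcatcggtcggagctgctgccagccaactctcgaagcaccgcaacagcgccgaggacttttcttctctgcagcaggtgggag
Vcl: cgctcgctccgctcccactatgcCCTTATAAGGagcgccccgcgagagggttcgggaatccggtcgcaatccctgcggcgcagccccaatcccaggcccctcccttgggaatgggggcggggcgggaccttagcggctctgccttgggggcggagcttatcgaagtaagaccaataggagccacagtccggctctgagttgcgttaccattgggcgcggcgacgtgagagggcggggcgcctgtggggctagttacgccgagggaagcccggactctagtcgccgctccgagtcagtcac

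For the lineage side, the SOX motif ACAATG occurred for 10.3 percent of genes higher in OPC, 8.21 percent of those lower, 9.1 percent of all tested genes and 14.3 percent of all genes with a window. The AP-1 motif TGANTCA, with C or G at N, occurred for 4.2 percent of genes higher in OPC, 5.25 percent of those lower, 4.65 percent of all tested genes and 5.95 percent of all genes with a window.

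Ligands, receptors and targets of TGF-beta, a pathway that drives matrix production, were lower in OPC for 14 of 16 members, higher for 0 by limma, and 2 did not pass (median -2.56). Among ligands and their carriers, Ltbp1, which binds latent TGF-beta, was at 5.02 and 4.48 in OPC and 10.10 and 10.26 in AST, and Inhba, the activin A subunit, was lower by -3.88 ± 0.43. Among receptors, Tgfbr2 was at 6.02 and 5.43 in OPC and 9.67 and 9.86 in AST, and the coreceptor Tgfbr3 was lower by -3.00 ± 0.20. The target Tgfbi was at 3.06 and 2.86 in OPC and at 8.61 and 6.40 in AST, with the AST arrays well apart. In the BMP branch, 4 of 17 (23.5 percent) were higher and 6 (35.3 percent) lower, beside 26.1 and 25.6 percent over all genes. The receptors Bmpr1a and Bmpr2 were higher by 1.23 ± 0.16 and 1.18 ± 0.14. The antagonist Grem1 was at 4.23 and 3.76 in OPC and 10.83 and 10.61 in AST, and the target Id1 at 6.35 and 5.85 against 10.53 and 10.37. Transcription factors of the epithelial-mesenchymal transition were lower for 8 of 11 members and higher for 2. Snai2, Twist2, Prrx1 and Twist1 were lower by -5.69 ± 0.29, -4.00 ± 0.33, -3.72 ± 0.19 and -3.37 ± 0.21, and Zeb1 and Zeb2, which neural progenitors also use, were higher by 1.58 ± 0.20 and 1.44 ± 0.28.

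S100 proteins and annexins, calcium-binding proteins of the membrane cortex, all passed the test. Of 16 measured, 14 (87.5 percent) were lower in OPC and 2 (12.5 percent) higher, with a median difference of -4.03. Over all genes 25.6 percent were lower and 26.1 percent higher. Anxa2 was at 7.42 and 6.42 in OPC and 13.31 and 13.23 in AST, -6.35 ± 0.28, and a further probe set gave -0.48. Anxa3 and Anxa4 were lower by -6.32 ± 0.36 and -5.57 ± 0.15. The 2 higher members were S100b and S100a16, the second at 11.39 and 12.13 in OPC and 6.87 and 6.98 in AST. Of the 5 genes of caveolae measured, which are pits of the plasma membrane, 4 were lower. Cav1, their main coat protein, was at 4.87 and 5.21 in OPC and 12.36 and 12.11 in AST, -7.19 ± 0.22. Both OPC arrays lay near the median and both AST arrays far above it.

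Secreted immune signals were lower in OPC for 12 of 21 members. Of 21 cytokines and chemokines measured, 12 were lower, 1 higher and 8 did not pass, with a median difference of -1.45. The monocyte attractant Ccl2 was at 6.14 and 5.23 in OPC and 11.16 and 11.32 in AST, and Ccl7 was lower by -4.36 ± 0.46. Csf1, which sustains microglia and macrophages, was at 8.14 and 7.50 in OPC and 11.80 and 11.53 in AST. The higher one was Il18, an interleukin of the IL-1 family, by 4.05 ± 0.41. Of 17 interferon response and MHC class I genes, 2 (11.8 percent) were higher, 7 (41.2 percent) lower and 8 did not pass. Their median difference was -0.1, and over all genes 26.1 percent were higher and 25.6 percent lower. Fewer calls each way remained without OPC array 2 or AST array 1, and fewer higher ones without OPC array 1. Stat2, a transducer of interferon signals, was higher by 0.70 ± 0.14. B2m, the light chain of MHC class I, was lower by -1.61 ± 0.13 and the interferon factor Irf1 by -1.71 ± 0.16. Of 13 IGF genes, 4 (30.8 percent) were higher and 5 (38.5 percent) lower, with fewer lower calls without OPC array 1 or AST array 2. The binding protein Igfbp5 was at 7.81 and 7.69 in OPC and 3.50 and 3.46 in AST. A further Igfbp5 probe set gave a difference of 0.30 (limma adjusted p = 0.376). Igfbp7 was at 5.63 and 5.95 in OPC and 10.47 and 10.63 in AST. Its further probe sets gave differences of -1.23 and 0.07, the last not called.

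Lipid synthesis genes were higher in OPC to a smaller degree. Among all genes tested, 26.1 percent were higher and 25.6 percent lower. Of 19 cholesterol synthesis genes, 10 (52.6 percent) were higher and 1 (5.26 percent) lower, with a median difference of 0.92. That count was 5 without OPC array 2 and 3 without AST array 1. Tm7sf2, a sterol reductase, was at 9.43 and 9.36 in OPC and 6.65 in both AST arrays, and Dhcr7, the last enzyme of the pathway, at 9.83 and 9.86 in OPC and 7.08 and 7.55 in AST. Hmgcs1, at the entry of the pathway, was higher by 1.24 ± 0.26, and Ebp, a sterol isomerase, was lower by -1.70 ± 0.29. Of 15 fatty acid genes, 10 (66.7 percent) were higher and 1 (6.67 percent) lower. Acss2, which makes acetyl-CoA from acetate, was at 8.64 and 9.06 in OPC and 5.56 and 6.26 in AST. Acsl3 and the elongase Elovl5 were higher by 2.31 ± 0.28 and 1.52 ± 0.23, and the elongase Elovl1 was lower by -1.30 ± 0.20. AST array 2 lay above AST array 1 for Dhcr7, Acss2, Acsl3 and Hmgcs1.

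Of 21 mitosis genes, 18 did not pass, 1 was higher (0 without OPC array 1 or either AST array) and 2 lower (1 without OPC array 2 or AST array 1). Of 24 replication genes, 15 did not pass, 9 (37.5 percent) were lower and 0 higher by limma, beside 25.6 percent lower and 26.1 percent higher over all genes. Mki67, a mark of cycling cells, was at 11.20 and 11.05 in OPC and 10.69 and 10.44 in AST, 0.56 ± 0.24 (limma adjusted p = 0.079). Ccnb2, a mitotic cyclin, was lower by -2.23 ± 0.43, and by -1.41 without OPC array 2. Among replication genes, Tyms, which makes thymidylate, was lower by -1.51 ± 0.25 and the G1/S cyclins Ccne2 and Ccne1 by -1.23 ± 0.25 and -1.04 ± 0.22. Of 11 CDK inhibitors and D cyclins, 4 (36.4 percent) were higher and 2 (18.2 percent) lower. Fewer higher calls remained without OPC array 2 or AST array 2. Cdkn2b, the CDK inhibitor p15, was at 4.39 and 4.52 in OPC and 9.15 and 9.31 in AST, -4.78 ± 0.18, and Cdkn2a at 7.38 and 7.49 in OPC and 9.00 and 9.29 in AST. Rb1 was higher in OPC by 1.85 ± 0.20.

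Of 33 receptor tyrosine kinases and ligands, 11 (33.3 percent) were higher in OPC, 14 (42.4 percent) lower and 8 did not pass. Over all genes the shares were 26.1 percent higher and 25.6 percent lower. The neurotrophin receptors Ntrk3 and Ntrk2 were higher by 3.59 ± 0.24 and 3.58 ± 0.14, Erbb3, a neuregulin receptor, by 3.49 ± 0.12, and Fgfr3 by 3.26 ± 0.28. Met, the receptor of hepatocyte growth factor, was at 4.89 and 4.18 in OPC and 10.64 and 10.77 in AST. Of the PDGF receptors, Pdgfra was higher and Pdgfrb lower in OPC. Among ligands, Fgf7 was at 4.25 and 4.61 in OPC and 10.91 and 10.63 in AST, and Pdgfb was lower by -3.40 ± 0.45. Genes driven by ERK, the kinase at the end of this signalling, went both ways, with 8 of 18 (44.4 percent) higher and 6 (33.3 percent) lower. The feedback inhibitors Spry4, Spry2, Spry1 and Dusp6 were higher by 3.02 ± 0.39, 2.73 ± 0.38, 2.31 ± 0.38 and 2.15 ± 0.41, as was the factor Etv5 by 2.48 ± 0.35. Further Spry4 probe sets gave 0.85, 0.70 and 0.12, the last not called. Ier3, an early response gene, was at 3.86 and 4.61 in OPC and 11.40 and 11.41 in AST. The AP-1 subunit Fosl1 and the phosphatase Dusp4 were lower by -5.19 ± 0.31 and -2.71 ± 0.53.

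The Notch pathway, through which neighbouring progenitors hold back differentiation, had 10 of 16 members higher in OPC and 2 lower, with a median difference of 2.26. The ligand Dll3 was at 9.53 and 10.58 in OPC and 4.29 and 4.60 in AST, and the ligand Dll1 at 9.68 and 9.45 in OPC and 5.51 and 5.83 in AST. The receptor Notch1 was higher by 2.58 ± 0.37 and Notch2 lower by -1.08 ± 0.15. The targets Hes5 and Nrarp were higher by 3.38 ± 0.14 and 3.54 ± 0.16, and the adaptor Numb, an inhibitor, was lower by -0.73 ± 0.13. The Wnt list was even, with 6 of 31 (19.4 percent) higher, 6 (19.4 percent) lower and 19 not passing, beside 26.1 and 25.6 percent over all genes. Fewer of its lower calls remained without AST array 1. Its receptors Fzd3 and Fzd6 differed in opposite directions, by 3.82 ± 0.49 and -4.28 ± 0.31, and the feedback gene Axin2 was higher by 1.71 ± 0.15.

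Sox factors, which hold progenitor and glial states, were higher in OPC for 11 of 14 members and lower for 0 by limma, with a median difference of 1.70. Sox8 was at 8.52 and 9.61 in OPC and 4.07 and 4.09 in AST, and Sox3 at 9.58 and 9.65 in OPC and 4.98 and 5.14 in AST. Sox6, which keeps OPC from differentiating, was at 10.56 and 10.91 in OPC and 7.31 and 7.24 in AST, with NSC lower still at 3.77 and 3.98. Sox5 was higher by 3.11 ± 0.20. Factors of brain regions were even, with 6 of 17 (35.3 percent) higher and 6 (35.3 percent) lower, beside 26.1 and 25.6 percent over all genes. Fewer lower calls remained without OPC array 1 or AST array 1. The ventral factor Gsx1 was higher by 2.61 ± 0.18 and the hindbrain and midbrain factor En2 by 2.02 ± 0.30, while the cortical factor Otx1 was lower by -1.98 ± 0.20. Pou3f3, a neural POU factor, was at 10.72 and 10.63 in OPC and 9.38 and 9.47 in AST, both far above NSC at 4.35 and 4.38.

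Most glutamate and GABA receptor genes measured were higher in OPC, and input from neurons was not tested. Of 19 such genes measured, 15 (78.9 percent) were higher and 0 lower by limma, with a median difference of 1.04, and 34 had been listed. Over all genes 26.1 percent were higher and 25.6 percent lower. Grm5, a metabotropic glutamate receptor, was at 9.11 and 9.35 in OPC and 2.82 and 2.77 in AST. Gabrg1, a GABA-A receptor subunit, was at 9.00 and 9.05 in OPC and 2.94 and 2.98 in AST, and the AMPA receptor subunit Gria4 was higher by 4.37 ± 0.20. For Grm5 and Gabrg1 the AST and NSC arrays were all near the bottom of the scale. Of 21 ion channel genes, 13 (61.9 percent) were higher and 3 (14.3 percent) lower. Kcnd2 and Kcnd3, A-type potassium channels, were higher by 5.87 ± 0.28 and 5.25 ± 0.39, and Kcnj10, the potassium channel Kir4.1 of glia, by 4.75 ± 0.34. The leak channel Kcnk2 was lower by -1.87 ± 0.29 and Kcnk1 higher by 4.11 ± 0.21.

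Of 30 neural adhesion molecules, 21 were higher and 0 lower by limma, with a median difference of 2.79. Cntn1, a contactin, was at 10.29 and 11.04 in OPC and 4.60 and 4.77 in AST, and further Cntn1 probe sets gave differences of 9.97 and 9.39. Cadm4 and Nrcam, which bind axons, were higher by 5.79 ± 0.59 and 5.32 ± 0.48. Of 24 cadherins and protocadherins, 15 were higher and 2 lower. Pcdh17 and Cdh6 were higher by 5.79 ± 0.31 and 4.10 ± 0.57, and Pcdh18 was lower by -3.86 ± 0.20. Of 43 axon guidance genes, 11 (25.6 percent) were higher, 16 (37.2 percent) lower and 16 did not pass, beside 26.1 and 25.6 percent over all genes. The semaphorin Sema6d and the receptors Plxnc1 and Ephb1 were higher by 5.08 ± 0.34, 4.77 ± 0.37 and 2.76 ± 0.16. The repellent Slit2 was at 3.87 and 3.92 in OPC and 9.71 and 9.36 in AST, and Sema3c, Efna1 and the receptor Nrp2 were lower by -3.87 ± 0.32, -3.62 ± 0.25 and -3.61 ± 0.25.

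Metabolic and stress genes were lower in OPC more often than higher. Of 19 glycolysis and hypoxia genes, 10 were lower in OPC, 2 higher (1 without OPC array 1 or AST array 2) and 7 did not pass. Slc2a1, the glucose transporter GLUT1, was at 7.62 and 7.91 in OPC and 10.30 and 10.49 in AST, and the kinases Pfkp and Hk2 were lower by -2.97 ± 0.21 and -1.90 ± 0.29, while Aldoc went the opposite way. Of 14 antioxidant genes under NRF2, 10 were lower and 1 higher (0 without OPC array 1 or AST array 2). Gsta4 and Nqo1 were lower by -2.87 ± 0.31 and -2.76 ± 0.50, and Hmox1, which degrades haem, was at 8.10 and 7.96 in OPC and 10.14 and 10.28 in AST. Of 18 lysosomal genes, 3 (16.7 percent) were higher and 6 (33.3 percent) lower, beside 26.1 and 25.6 percent over all genes. Fewer of the lower calls remained without AST array 2. Ctsz, cathepsin Z, was at 2.86 and 2.60 in OPC and 9.95 and 9.64 in AST, -7.07 ± 0.14, and Ctsc was lower by -5.87 ± 0.78. Ctso and Ctsf were higher by 3.26 ± 0.26 and 2.66 ± 0.25.

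**Figure D3:**
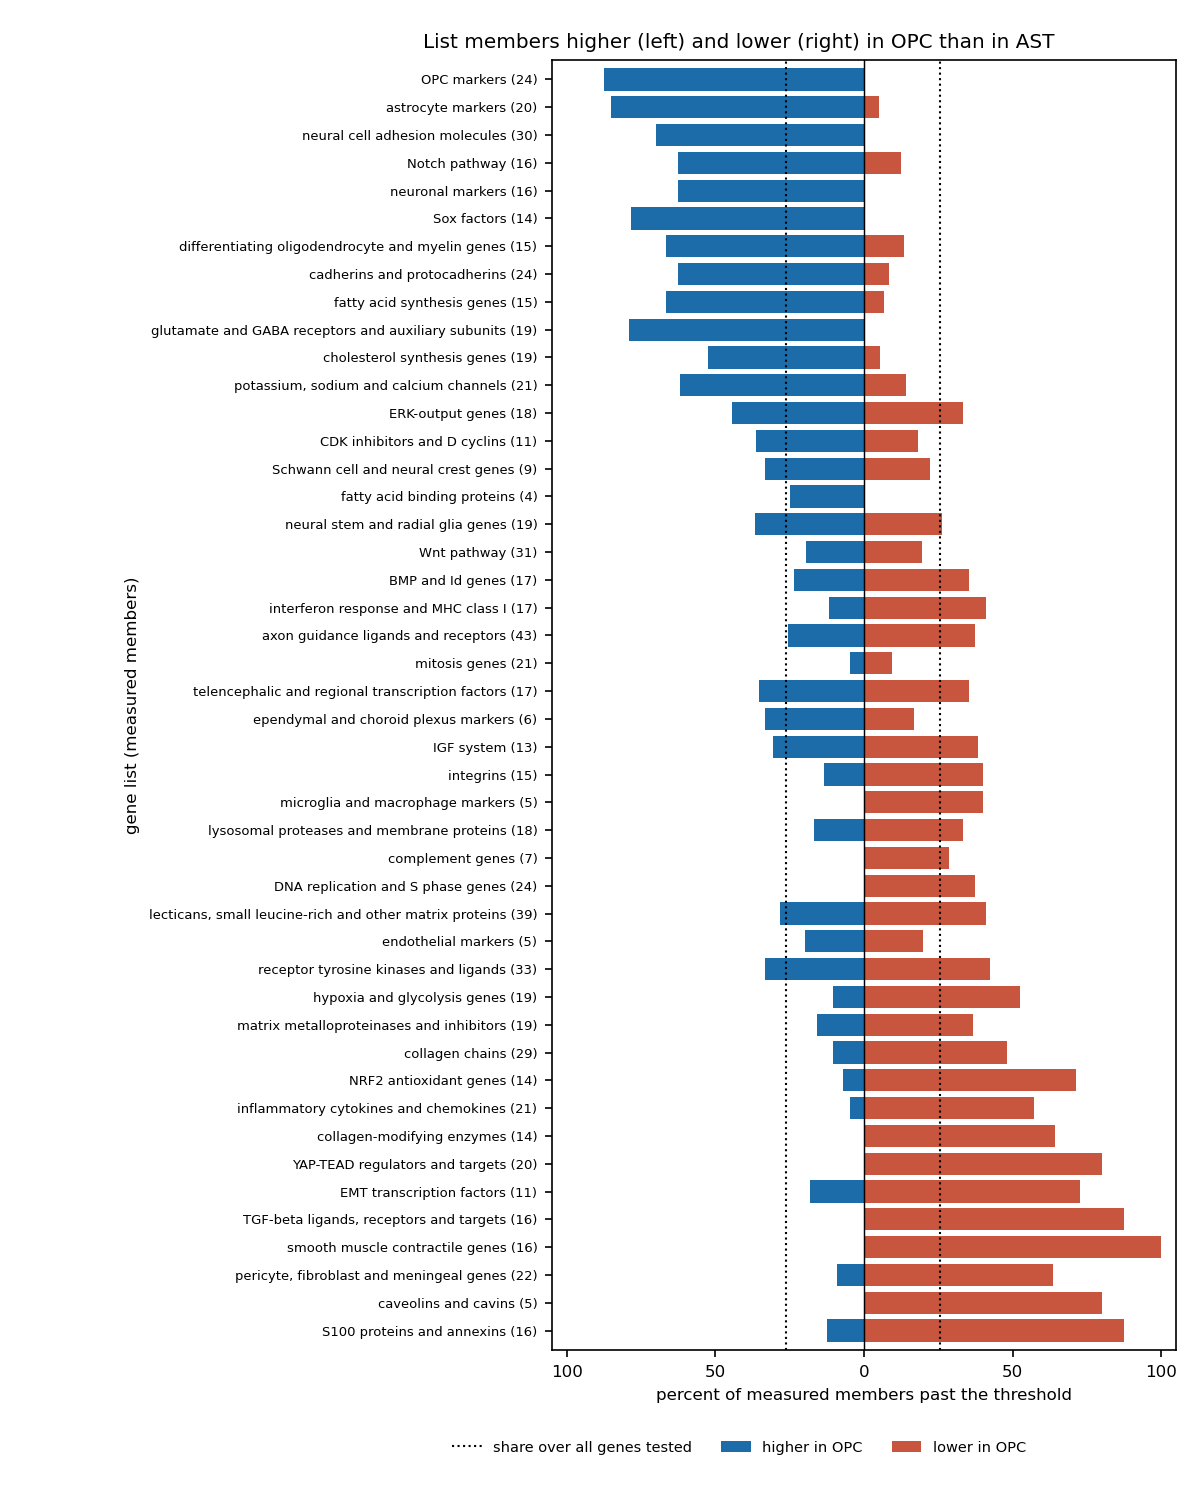
Percent of the measured members of each gene list higher (left, blue) and lower (right, red) in OPC than in AST by limma at an adjusted p under 0.05, with lists in order of their median difference and the number measured in parentheses. Dotted lines mark the shares over all genes, 26.1 percent higher and 25.6 percent lower. OPC and astrocyte markers stand at the top, and S100 proteins and annexins at the bottom.

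Xist, the RNA that coats the inactive X chromosome of female cells, was at 11.91 and 12.26 in OPC, 8.34 and 8.39 in AST and 10.30 and 9.85 in NSC. OPC were higher by 3.72 ± 0.23 (limma adjusted p = 1.37e-06), and 3 of 3 probe sets were called higher. The lines kept the order, at 11.21 and 11.40 in OPCL61 and 7.19 and 7.73 in ASTL61. The Y-linked genes Eif2s3y, Kdm5d and Uty had no group mean above the median of all values. The labels give no sex, and whether the parents differ in X chromosomes was not tested.

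Called genes were spread unevenly over the chromosomes, as placed by the RefSeq gene table. On chromosome 14, 44.9 percent of 423 genes were higher in OPC and 14.9 percent lower, with a median difference of 0.29. On chromosome 19, 13.4 percent of 449 genes were higher and 42.3 percent lower, with a median of -0.29. On chromosome 13, 17 percent of 477 genes were higher and 40.7 percent lower, and on chromosome 7, 34.7 percent of 981 genes were higher and 14.5 percent lower. The medians of OPCL61 minus ASTL61 were 0.40 on chromosome 14 and -0.087 on chromosome 19. Chromosomes 4 and 16, with parental medians of -0.13 and -0.19, had medians of -0.46 and -0.45 between the lines. These are descriptions of 4 arrays, and copy number was not measured.

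**Figure D4:**
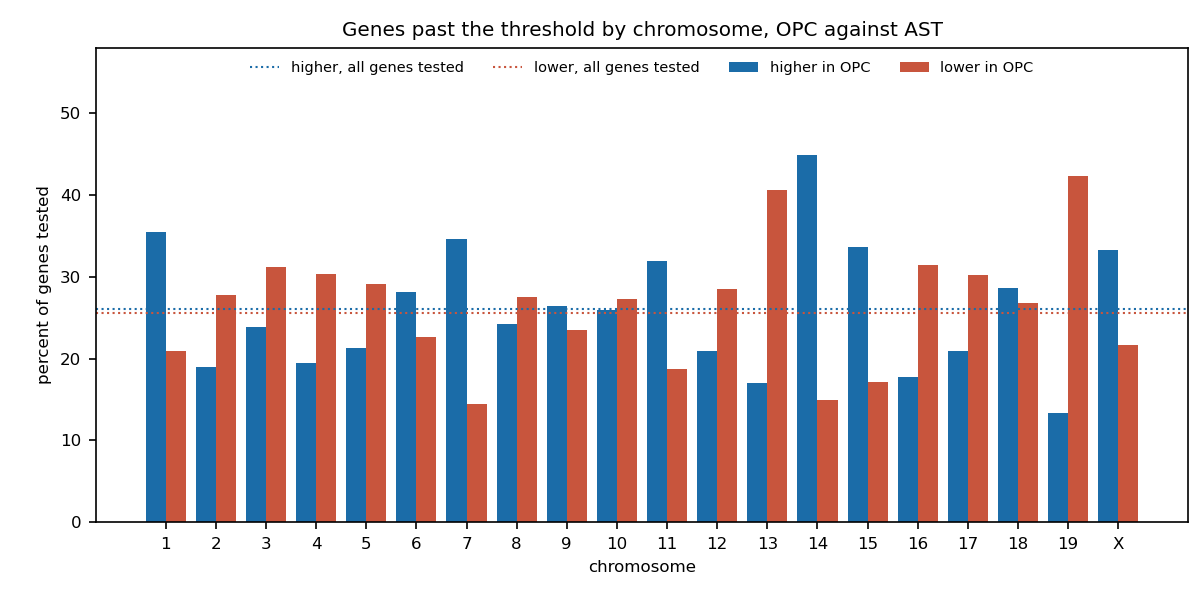
Percent of the genes tested on each chromosome that were higher (blue) or lower (red) in OPC than in AST by limma, with dotted lines at 26.1 and 25.6 percent over all genes. Chromosome 14 reaches 44.9 percent higher, and chromosomes 13 and 19 reach 40.7 and 42.3 percent lower.

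The lines carrying HRasL61 showed which parental differences were also found between OPCL61 and ASTL61. Between the lines 4702 genes (36.6 percent) passed, 2428 (18.9 percent) higher and 2274 (17.7 percent) lower in OPCL61. Of the 3354 genes higher in OPC, 1231 (36.7 percent) were also higher in OPCL61, 248 (7.39 percent) were lower and 1875 did not pass. Of the 3283 genes lower in OPC, 1240 (37.8 percent) were also lower, 279 (8.5 percent) higher and 1764 did not pass. The median difference of the first set was 1.01 between parents and 0.30 between lines, and that of the second was -0.87 and -0.25, where choosing genes on the parental values makes those larger. The difference between the 2 contrasts passed for 4545 genes (35.4 percent), 2346 (18.3 percent) positive and 2199 (17.1 percent) negative. By that test the signed difference was lower between the lines than between the parents for 1828 of the higher genes. It was higher for 1525 of the lower genes. These counts take in genes whose direction reversed, such as Nppb, so they are not counts of smaller differences.

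Lox was among the genes whose difference between the lines was close to the parental one, at 4.20 and 3.63 in OPCL61 and 12.64 and 12.61 in ASTL61, -8.71 ± 0.24, and the 2 contrasts differed by 0.47 ± 0.33 (limma adjusted p = 0.304). Bgn, Col1a1, Cav1 and Ctsz were lower by -7.77 ± 0.15, -7.42 ± 0.30, -7.32 ± 0.22 and -7.26 ± 0.14 in OPCL61. The contractile gene Acta2 differed more between the lines, at 6.45 and 5.81 in OPCL61 and 13.51 and 12.97 in ASTL61. Of the 22 pericyte, fibroblast and meningeal genes, 16 were lower and 1 higher between the lines, and of 16 contractile genes, 14 were lower. Over all genes, 17.7 percent were lower and 18.9 percent higher between the lines. Cholesterol synthesis genes were higher in OPCL61 for 14 of 19 and lower for 0 by limma.

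Olig1 and Olig2 kept part of their difference. Olig1 was at 9.17 and 8.89 in OPCL61 and 3.49 and 3.39 in ASTL61, 5.59 ± 0.17, and Olig2 at 6.82 and 5.90 against 2.79 and 2.89, 3.52 ± 0.25. Both differences were smaller than between the parents, by 4.78 ± 0.24 for Olig1 and 5.84 ± 0.35 for Olig2 (limma adjusted p = 2.43e-06 and 5.96e-06). Rlbp1 and Lhfpl3, high in OPC, did not pass between the lines, at 0.18 and 0.32. Of 24 OPC markers, 7 were higher and 2 lower in OPCL61, where 18.9 percent of all genes were higher and 17.7 percent lower. Pdgfra was at 8.05 and 7.14 in OPCL61 and 8.96 and 9.00 in ASTL61, so its direction was the opposite of that between the parents. Sox6 likewise was lower in OPCL61, by -0.72 ± 0.22. Of 20 astrocyte markers, 9 were higher and 0 lower in OPCL61 by limma, among them Mlc1 by 2.50 ± 0.13.

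**Figure D5:**
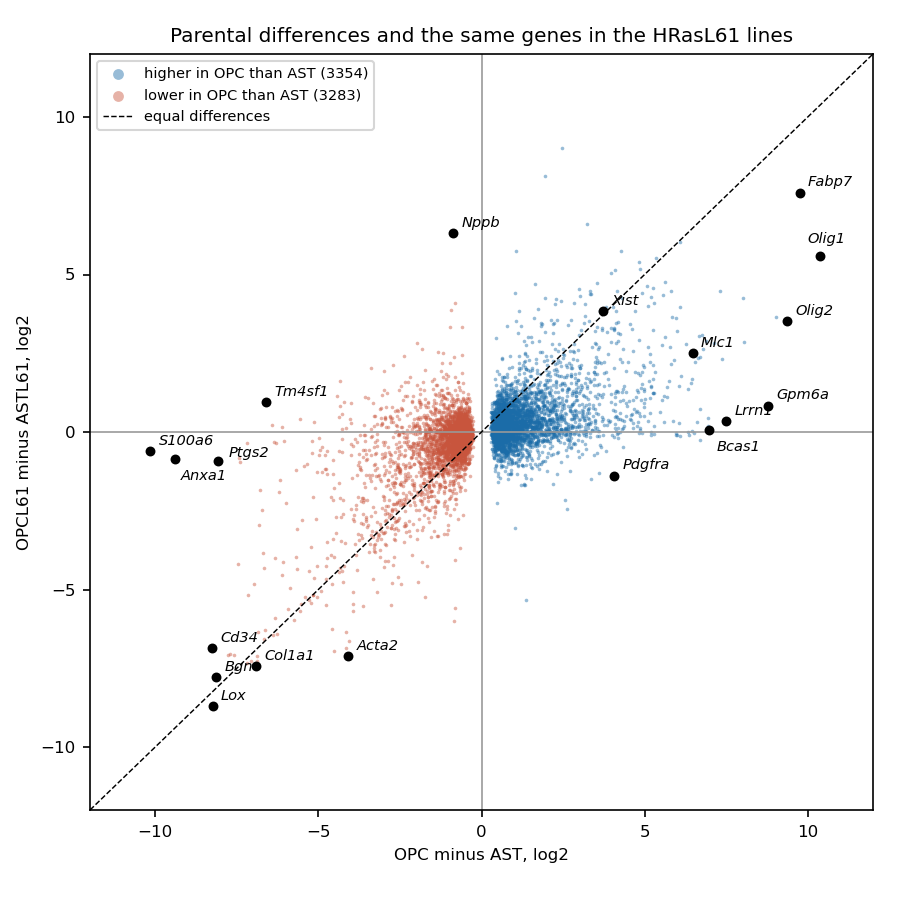
Difference OPCL61 minus ASTL61 (vertical axis) against OPC minus AST (horizontal axis), log2, for the 3354 genes higher and 3283 genes lower in OPC. The dashed line marks equal differences. Lox, Bgn and Col1a1 lie near it, Gpm6a, Bcas1, S100a6 and Anxa1 lie close to 0 on the vertical axis, and Nppb and Pdgfra have opposite signs on the 2 axes.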

How the data were processed

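The deposited table holds log2 signals of 45101 probe sets on 12 arrays, as deposited by the authors. Their normalization method is not given in the sources used here, and the scale was read from the values, which run from 2.139 to 14.33 with array medians from 5.157 to 5.211. Per the labels, total RNA was biotin-labelled by in vitro transcription. Control probe sets were left out, and 34945 probe sets with a single symbol gave 18193 genes. Probe sets with a group mean above 5.183, the median of all values, in at least 1 of 6 groups were kept, and each gene was read by its kept probe set with the highest mean over 12 arrays. For 48 tested genes, 4 of them named, a brighter probe set without such a group mean was passed over.

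limma 3.58.1 in R 4.3.3 fitted the 6 group means to all 12 arrays, so the groups shared 1 estimate of spread, and Benjamini-Hochberg adjustment ran over 12835 genes with a threshold of 0.05. An exact permutation test of 2 arrays against 2 cannot reach that threshold. On simulated data for OPC against AST over 12835 genes, the fit recovered 71 of 100 genes changed by 1 on the log2 scale. It recovered 97 of 100 changed by 2, with 11 unchanged genes called. That simulation changed only 200 genes and drew independent normal noise for each array, whereas 51.7 percent of genes passed in the data. Its rates therefore check the code and need not hold for OPC against AST. The number of arrays limits the precision.

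Named were the 12 largest differences each way with no overlap of arrays, up to 5 members of each list each way, a fixed set of lineage markers, and the 5 largest differences of contrasts each way. Provisional symbols were left out. The members and lists were chosen with earlier results of these data known. Alternatives covered normalization, the filter, several probe sets per gene, the replicate block, the prior, array weights, the arrays fitted, a minimum change and each array left out. Arrays of the NSC line were used only for the shared spread, the filter and the choice of probe set.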

Additional observations from a re-analysis of the deposited data

Results flagged for a closer look

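The parental difference differed from that between the lines for 4545 genes by limma's test of the difference of contrasts, and the named genes with the largest such values are given here as OPC minus AST, less OPCL61 minus ASTL61.

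On the positive side, Gpm6a had a value of 7.957, with 3.69 and 3.77 in OPCL61 and 3.01 and 2.78 in ASTL61, so its high level in OPC was in neither line. Lrrn1 had 7.155, with 3.02 and 3.36 in OPCL61 and 2.91 and 2.77 in ASTL61. Sparcl1 had 6.947, with 7.58 and 5.94 in OPCL61 and 6.87 and 7.17 in ASTL61, where the groups overlapped. Bcas1 had 6.898 and Rlbp1 6.775, and neither passed between the lines, at 0.07 and 0.18.

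On the negative side, S100a6 had -9.555, with 12.84 and 13.23 in OPCL61 and 13.56 and 13.71 in ASTL61, so both lines were near the AST level. Anxa1 had -8.536, with 12.32 and 12.71 in OPCL61 and 13.28 and 13.47 in ASTL61. Tm4sf1, a tetraspan membrane protein, had -7.527, with 4.12 and 3.93 in OPC, 10.47 and 10.76 in AST, 12.26 and 12.50 in OPCL61 and 10.80 and 12.09 in ASTL61. Nppb, the natriuretic peptide B, had -7.164, with 11.80 and 12.13 in OPCL61 and 5.46 and 5.86 in ASTL61 against 4.59 and 4.72 in OPC and 5.32 and 5.70 in AST. Ptgs2 had -7.141, with 10.86 and 11.24 in OPCL61 and 11.47 and 12.47 in ASTL61.

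Probe sets with no gene name in the annotation used here also differed. Fitted on their own, 374 were higher and 403 lower in OPC among 2090 above the median, 37.2 percent in all. The largest such differences were 8.40 with 11.25 and 12.6 in OPC and 3.257 and 3.792 in AST, and -7.21 with 4.255 and 3.667 in OPC and 11.58 and 10.77 in AST.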

How the results depend on the processing

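Among the alternatives that kept all 12 arrays, or only the 4 compared, and set no minimum change, genes past limma's threshold between OPC and AST numbered from 5095 with the filter at the 75th percentile to 7330 with array weights. Against a minimum change of 1 on the log2 scale the count was 1628, with 941 higher and 687 lower in OPC. The same setting gave 653 genes between the lines (315 higher, 338 lower) and 857 for the difference of contrasts (500 positive, 357 negative). Fitting only the 4 arrays of the lines gave 2598 genes (1326 higher, 1272 lower). Leaving out 1 array gave 5210 to 5573 genes for OPC against AST (2680 to 2815 higher, 2452 to 2758 lower). For the lines it gave 3692 to 4488 (1867 to 2319 higher, 1769 to 2169 lower), and for the difference of contrasts 3298 to 4585 (1775 to 2394 positive, 1512 to 2191 negative). A lone array was then assumed to vary like the other groups. With the replicate block the counts were 6567, 4641 and 4469. Deviations of same-numbered OPC and AST arrays correlated at 0.0593 and only 2 pairs exist, so the numbers were not taken to pair the arrays. No named gene changed direction past the threshold under these alternatives. Of 296 named genes, 88 no longer passed with the minimum change, and 23, 21, 26 and 22 without OPC array 1, OPC array 2, AST array 1 and AST array 2. Without the filter, the brightest of all probe sets was read, and 4 named genes lost their call: Sox1 at 0.022, Slc1a2 at 0.26, Sema3d at 0.40 (limma adjusted p = 0.156) and Mmp10 at -2.22 (adjusted p = 0.0531). Of the 48 genes read by another probe set than the brightest, 36 passed with the filter and 23 of these did not without it. The mean of the kept probe sets moved 32 named genes by over 1.5 times. Centring on array medians moved the median difference to -0.0945 and quantile normalization to -0.0848. In an alternative chosen after seeing the data, with every kept probe set fitted on its own, 11748 probe sets passed between OPC and AST.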

Other observations

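Several probe sets of a gene did not always move together. Size also varied for named genes whose other probe sets are not given above, such as Slit2, at -5.64, -1.21 and -0.78. Of 6097 genes with more than 1 probe set kept, 4629 had all of them on 1 side of 0. Among 2883 genes with at least 2 probe sets called, 110 had them called both ways. Rabgap1l, named after its values were seen, had probe sets at 2.977 and -2.198, and Nectin3, an adhesion molecule named in the same way, at 2.629 and -2.084. Which transcripts these probe sets read was not tested.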
